A study of Mus musculus with 6 samples.

Results

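The nuclear genes for subunits of the oxidative phosphorylation machinery were examined in splenic type-2 conventional dendritic cells (cDC2s) that lack Arhgef1 and in wild-type (WT) cDC2s. The genes were taken by name, as every row of the count table whose symbol begins with Nduf followed by a, b, c, s or v and a digit, is Sdha, Sdhb, Sdhc or Sdhd, or begins with Uqcr, with Cox and a digit of 4 to 8, or with Atp5. This gave 79 of the 14788 symbols in the table. By the subunits they encode, 34 belong to complex I, 4 to complex II, 8 to complex III, 15 to complex IV and 15 to complex V. Ndufa4 carries a complex I name but was placed with complex IV, of which its product is a subunit. The other 3 symbols that match the names (Atp5s, Atp5sl and Cox4nb) encode proteins that are not subunits of these complexes and are kept apart.

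The oxidative phosphorylation system sits in the inner mitochondrial membrane. Complexes I and II pass electrons from NADH and succinate to ubiquinone, complex III passes them on to cytochrome c, and complex IV (cytochrome c oxidase) hands them to oxygen. Complexes I, III and IV pump protons in doing so, and complex V, the ATP synthase, uses the proton gradient to make ATP. Most subunits are encoded in the nucleus and imported, while a small set of core subunits is encoded by mitochondrial DNA. In dendritic cells, resting cells are known to depend on this system more than strongly activated cells, which lean on glycolysis.

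The series holds 6 RNA-seq libraries from spleens of C57BL/6 mice, 3 of Arhgef1-/- cDC2s and 3 of WT cDC2s. Arhgef1 is a guanine nucleotide exchange factor for the small GTPase RhoA. The labels name no treatment, age or sex, do not say how the cells were sorted or which part of the gene was removed, and do not tell whether each library came from its own animal. The p-values therefore measure the spread between these libraries, which may be technical. All knockout libraries carry the lane number 2 of one run name and all WT libraries the lane number 1 of another, so that genotype, lane and run cannot be told apart. In a bulk library, more cells with a transcript and more of it per cell cannot be told apart either.

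Total counts per library ran from 8408325 to 11714365 in the knockout and from 8546267 to 10702215 in WT. Arhgef1 itself had 987, 1238 and 1694 counts in the knockout libraries, against 3000, 2754 and 2088 counts in the WT libraries. Each of 13 cDC2 marker genes was present. Of the 11 tested, 5 fell (45.5%, against 4.58% of all genes). The summed counts of the list made up 1.04% to 1.12% of a knockout library and 1.24% to 1.38% of a WT library. Markers of some other cells moved with genotype too. Of 15 tested macrophage markers 12 fell, with a summed share of 0.027% to 0.0436% in the knockout and 0.074% to 0.117% in WT, and 0 of the 16 in the table was at 0 in all libraries. Of 4 tested monocyte markers 3 fell, with a summed share of 0.0273% to 0.0362% in the knockout and 0.0426% to 0.0629% in WT. Of 7 tested cDC1 markers 1 fell, and of 3 tested T cell markers 1 rose. Among the tested markers of plasmacytoid (5), B (5), erythroid (3), NK (1), neutrophil (1) and platelet (1) lineages 0 was called. Of 25 cell cycle genes 25 rose (100%, against 5.09% of all genes). Their summed share was 0.468% to 0.544% in the knockout and 0.223% to 0.271% in WT. These marker and cell cycle lists were chosen with earlier results of these data known, so their shares are a description and not a test. The part that these cells or the cycle have in the results below was not tested.

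As a set, the genes differed little between the genotypes. Of the 77 genes with enough counts to be tested, 2 rose in the knockout (Atp5b and Cox7b) and 1 fell (Cox7a2l), at an edgeR quasi-likelihood adjusted p under 0.05. That is 2.6% of the tested genes higher and 1.3% lower, against 5.09% higher and 4.58% lower (9.67% in either direction) among all 11504 genes tested. At an unadjusted p under 0.05 the set had 5 genes higher and 1 lower, where the shares among all genes were 11.6% and 10.7%. The median log2 fold change of the set, knockout over WT, was 0.08, and that of all tested genes was 0.0003. Of the 77 genes, 50 had a fold change above 0 (64.9%, against 50.1% of all genes), and 52 lay within 0.25 of 0 on the log2 scale. The 95% interval of the fold change lay inside a 2-fold change either way for 66 genes, so that a change of 2-fold or more lay outside the interval for most of the set. The 3 knockout values lay above the 3 WT values for 8 genes (10.4%, against 13.7% of all genes) and below them for 3 genes (3.9%, against 13.5%). Cox6a2 and Cox7a1 were too low to test.

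**Figure D1:**
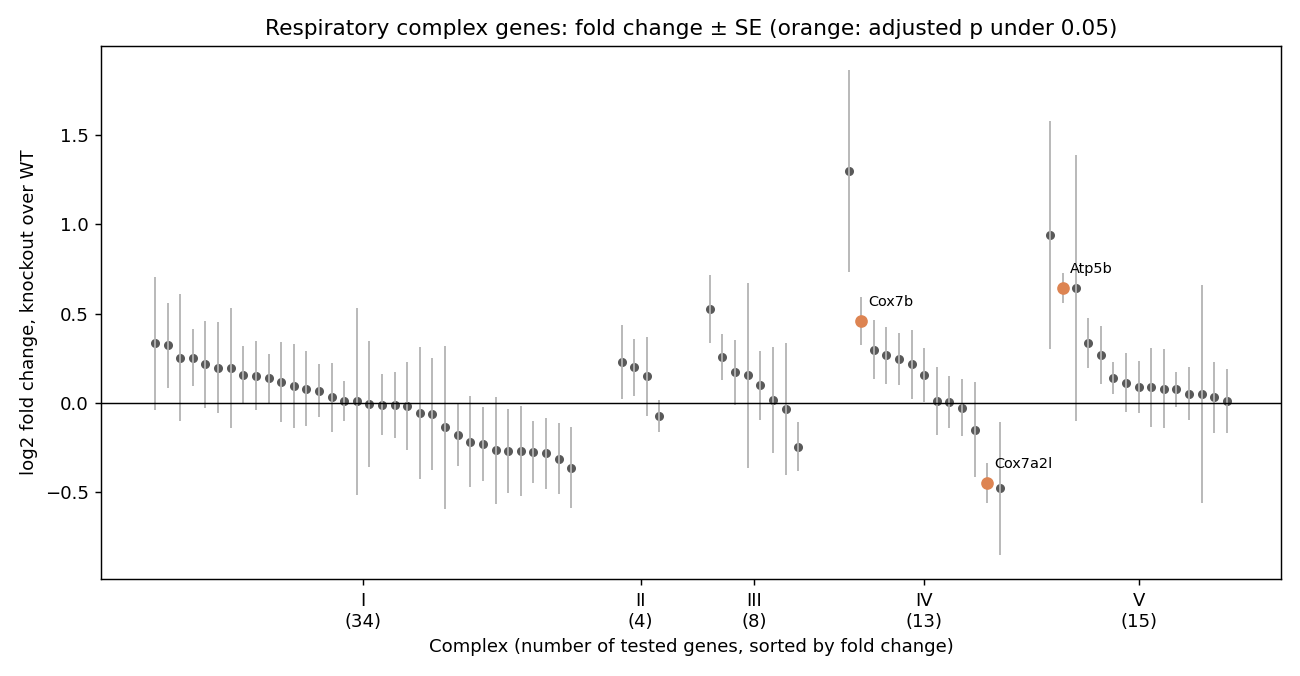
Log2 fold change, knockout over WT, with its SE, for the tested genes of complexes I to V, sorted within each complex from the highest to the lowest. Atp5b and Cox7b above the line and Cox7a2l below it, in orange, are the 3 genes with an edgeR adjusted p under 0.05, and complex I is spread evenly about 0.

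The set took a somewhat larger share of the counts in the knockout, and 1 gene accounted for most of the difference. Its share was 0.444%, 0.474% and 0.399% of the counts in the knockout libraries, against 0.358%, 0.363% and 0.397% in the WT libraries, where the lowest knockout and the highest WT library nearly met. Summed over complexes I to V, the normalised count was 4261, 4650 and 3922 CPM (counts scaled to a common library size) in the knockout, against 3601, 3572 and 3934 CPM in WT. Without Atp5b the sums were 3040, 3202 and 2791 CPM in the knockout, against 2822, 2745 and 3110 CPM in WT, and the groups overlapped widely. Libraries of the same genotype also differed among themselves. The median log2 deviation of the subunit genes from their own mean was 0.04, 0.17 and -0.08 in the knockout libraries and -0.08, -0.13 and 0.08 in the WT libraries. Knockout replicate 3 thus lay with WT replicates 1 and 2, and WT replicate 3 lay above 2 of the knockout libraries.

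To compare levels between genes, counts were divided by transcript length and scaled to the same total in every library (TPM). With the lengths used here complex V had the largest summed level, 4538 ± 370 TPM in the knockout and 3478 ± 114 TPM in WT (SD, n = 3 each), and its knockout libraries (4241 to 4953 TPM) lay above its WT libraries (3361 to 3589 TPM). Complex I summed to 2640 ± 259 TPM in the knockout and 2619 ± 186 TPM in WT. With exon-union lengths the order in WT turned, since complex V then summed to 2604 TPM and complex I to 2645 TPM there. Complex IV summed to 2525 ± 171 TPM in the knockout and 2320 ± 220 TPM in WT. Complex III summed to 915 ± 50.7 TPM in the knockout and 869 ± 61.6 TPM in WT, and complex II, with the fewest genes, to 587 ± 47.1 TPM in the knockout and 557 ± 37.8 TPM in WT. Only complex V had summed levels that did not overlap between the groups. With 3 libraries a group an exact permutation test cannot go below a p of 0.1, and no p is given for these sums.

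**Figure D2:**
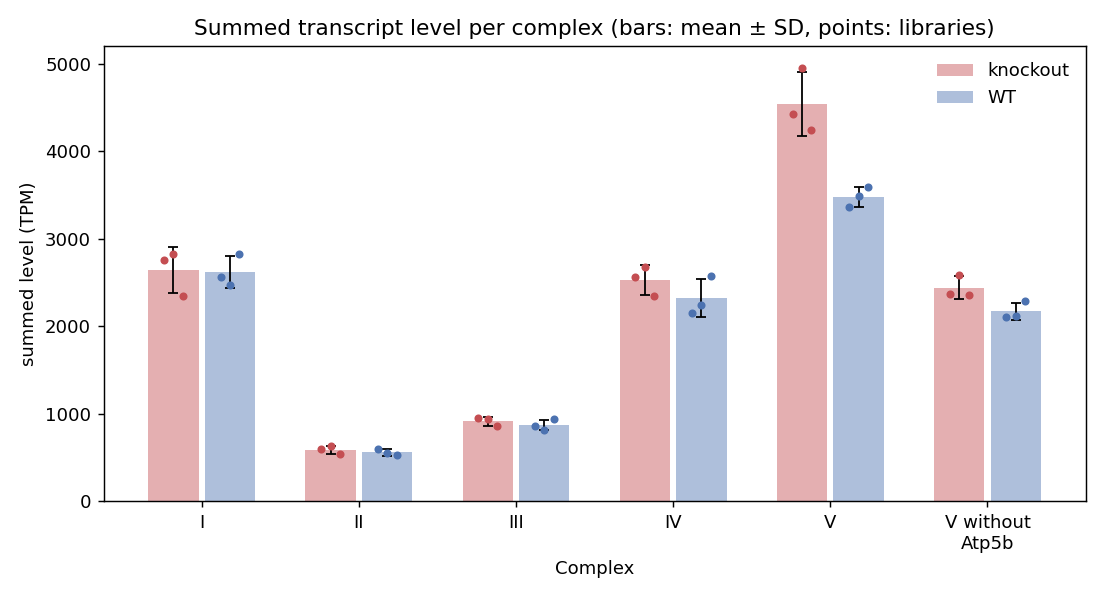
Summed transcript level (TPM) of the genes of each complex in knockout and WT libraries, as the mean with its SD (bars and error bars, n = 3 each) and as single libraries (points). Complex V differs between the groups, and without Atp5b its sum is 2439 ± 129 TPM in the knockout and 2168 ± 100 TPM in WT.

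Complex I, which oxidises NADH, showed the evenest picture. None of its 34 genes was called by edgeR, DESeq2 or limma-voom, where edgeR called 9.67% of all genes. An unadjusted p under 0.05 was found for 0 of them in any of the 3. With edgeR the shares among all genes were 11.6% higher and 10.7% lower. Their log2 fold changes ran from -0.36 to 0.33 with a median of 0.0017, and 17 of 34 were above 0. The 7 core subunits encoded in the nucleus, which together carry the flavin and the iron-sulphur clusters, ranged from -0.27 to 0.20 in log2 fold change. The 27 accessory subunits, which surround and stabilise the core, ranged from -0.36 to 0.33. This grouping by role was made after the values were seen.

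Ndufb9, an accessory subunit of the membrane arm and among the most abundant complex I genes per length, stood at 186 ± 29.97 TPM in the knockout and 182 ± 29.6 TPM in WT (log2 fold change -0.01 ± 0.17). The largest rise by estimate was that of Ndufb2, with 7.92, 8.27 and 5.88 CPM in the knockout, against 5.65, 3.57 and 8.26 CPM in WT (log2 fold change 0.33 ± 0.37). The largest fall by estimate was that of Ndufa6, with 20.02, 16.7 and 14.6 CPM in the knockout, against 22.4, 16.6 and 26.9 CPM in WT (log2 fold change -0.36 ± 0.23). Neither passed the test, and the libraries of both groups interleaved for each.

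Only 2 complex I genes had values that did not overlap between the groups, 1 in each direction. That is 2.94% higher and 2.94% lower, against 13.7% and 13.5% of all genes. Ndufa13, an accessory subunit also known as GRIM-19, had 37.5, 36.9 and 36.1 CPM in the knockout, against 27.5, 32.1 and 33.2 CPM in WT (log2 fold change 0.25 ± 0.16, edgeR adjusted p = 0.380). Ndufa2, an accessory subunit of the matrix arm, had 19.2, 17.3 and 20.5 CPM in the knockout, against 23.6, 20.6 and 25.2 CPM in WT (-0.28 ± 0.20, adjusted p = 0.440). For Ndufa13 the knockout libraries were close together and the WT libraries more spread, and for Ndufa2 the groups nearly met.

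Complex II is succinate dehydrogenase, an enzyme of the tricarboxylic acid cycle as well as of the respiratory chain, and all of its subunits are nuclear. None of its 4 genes was called, against 9.67% of all genes, and 4 genes are too few to read this count. Sdha, the flavoprotein that binds succinate, had 348, 284 and 317 TPM in the knockout, against 315, 325 and 332 TPM in WT (log2 fold change -0.07 ± 0.09). Its interval, -0.26 to 0.11 on the log2 scale, was among the narrowest in the set. The iron-sulphur subunit Sdhb had 27.7, 23.7 and 23.5 CPM in the knockout, against 27.1, 18.4 and 18.1 CPM in WT (0.23 ± 0.21). The membrane anchors gave 0.20 ± 0.16 for Sdhc and 0.15 ± 0.22 for Sdhd. Sdhd varied most among replicates, with 129, 215 and 107 TPM in the knockout, against 171, 128 and 98.1 TPM in WT. Without knockout replicate 2, the library with the high Sdhd value, the median fold change of complex II was 0.0015 in place of 0.17.

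In complex III, the cytochrome bc1 complex, 0 of 8 genes was called by edgeR, DESeq2 or limma-voom. Among all genes edgeR called 9.67%, and 8 genes are too few to read this count. Unadjusted p values under 0.05 numbered 1 with edgeR, 1 with DESeq2 and 2 with limma-voom. With edgeR the shares among all genes were 11.6% higher and 10.7% lower. The median log2 fold change was 0.13, and 6 of 8 were above 0. Without WT replicate 2 the median was 0.04 and 4 of 8 were above 0, and without WT replicate 3 the median was 0.24. Uqcrc1, a core protein of the matrix side, came nearest to the threshold. It had 32.01, 37.3 and 44.3 CPM in the knockout, against 31.5, 20.8 and 26.5 CPM in WT, so that the lowest knockout library lay just above the highest WT library (log2 fold change 0.53 ± 0.19, edgeR adjusted p = 0.092). Its partner core protein Uqcrc2 gave 0.26 ± 0.13 (adjusted p = 0.244), with overlapping groups.

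The hinge protein gene Uqcrh was the most abundant complex III gene per length, and its values went the other way. It had 325, 291 and 256 TPM in the knockout, against 335, 329 and 341 TPM in WT (log2 fold change -0.24 ± 0.14, edgeR adjusted p = 0.317). The knockout libraries lay below the WT libraries, although knockout replicate 1 nearly reached them. Uqcr10, the second by level, had 188 ± 24.6 TPM in the knockout and 171 ± 21.6 TPM in WT (0.10 ± 0.19). Cytochrome c1 (Cyc1), a nuclear catalytic subunit whose name the rule does not cover, gave 0.05 ± 0.15.

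Complex IV held 2 of the 3 called genes, in opposite directions, so that 7.69% of its 13 tested genes rose and 7.69% fell, against 5.09% and 4.58% of all genes. Its median log2 fold change was 0.16, and it was 0.06 without knockout replicate 2 and 0.24 without knockout replicate 3. Cox7b encodes a small membrane-spanning subunit that is needed for assembly of the enzyme. It lies on the X chromosome (mm10, 106015700 to 106022450, plus strand). Its normalised count was 59.0, 66.7 and 65.5 CPM in the knockout, against 45.3, 43.2 and 50.6 CPM in WT. Every knockout library was above every WT library, and the log2 fold change was 0.46 ± 0.14 (95% interval 0.17 to 0.75, edgeR adjusted p = 0.040). The call was close to the threshold and was lost in 7 of the 16 alternative settings, among them upper-quartile scaling (0.44, adjusted p = 0.0504) and leaving out any 1 library other than knockout replicate 1, where the fold change ran from 0.41 to 0.53 over the 5 removals.

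Cox7a2l encodes a protein related to the Cox7a subunits that joins complex III to complex IV in respiratory supercomplexes. The C57BL/6 strain is known to carry a shortened form of this protein, and both groups here are of that strain. The gene lies on chromosome 17 (mm10, 83501918 to 83517330, minus strand). It had 95.3, 94.3 and 87.0 CPM in the knockout, against 114.5, 122.5 and 140.2 CPM in WT. The knockout libraries were close together and all below WT, and the log2 fold change was -0.45 ± 0.11 (95% interval -0.68 to -0.21, edgeR adjusted p = 0.017). The call was lost without knockout replicate 3 (-0.41), WT replicate 2 (-0.47) or WT replicate 3 (-0.36).

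The genes of the Cox7a family gave unlike values. Cox7a2, the form of most tissues, had 27.6, 25.1 and 21.1 CPM in the knockout, against 21.1, 22.1 and 20.2 CPM in WT (log2 fold change 0.22 ± 0.19, edgeR adjusted p = 0.564). Per length, Cox7a2l stood at 2.12, 2.30 and 2.53 times the level of Cox7a2 in the knockout libraries, against 3.33, 3.39 and 4.26 times in the WT libraries, with no overlap. Cox7a1, the heart and muscle form, was at 0 to 0.621 CPM in the knockout and at 0 to 0.590 CPM in WT.

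**Figure D3:**
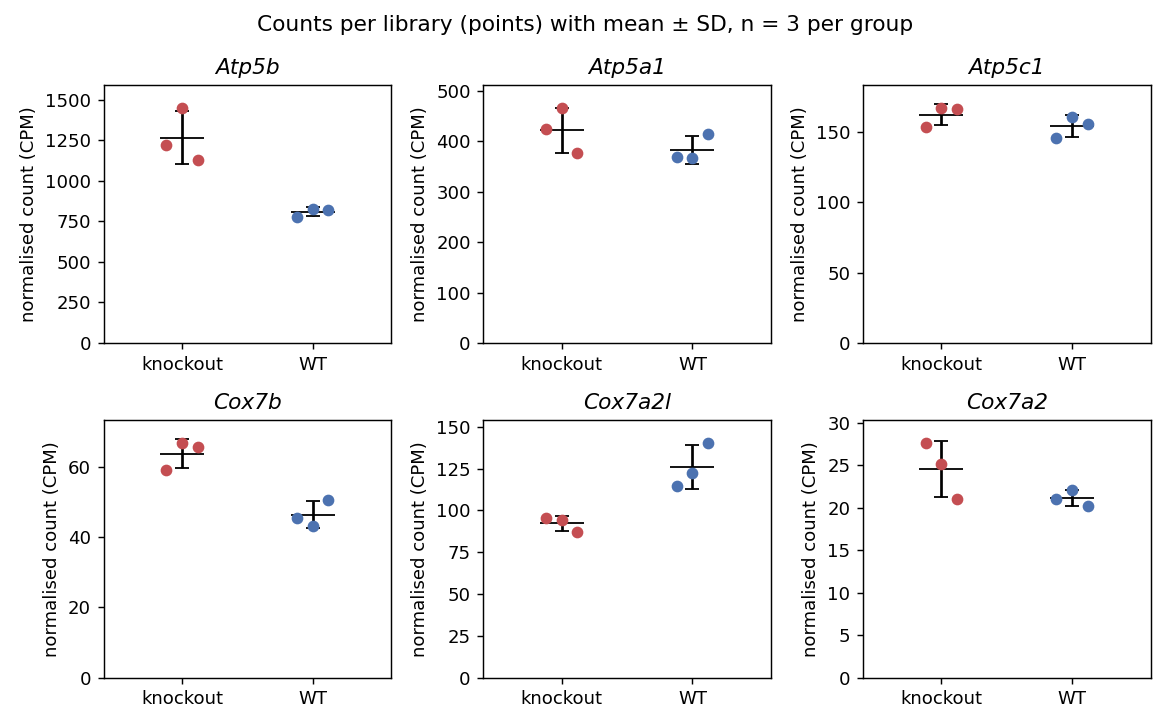
Normalised counts (CPM) in each knockout and WT library (points), with the mean and SD of each group (n = 3 each). The upper row shows the ATP synthase genes Atp5b, Atp5a1 and Atp5c1, of which only Atp5b separates the groups widely, and the lower row shows the complex IV genes Cox7b, Cox7a2l and Cox7a2.

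Other complex IV pairs showed the forms of non-muscle tissue. Cox6a1, the liver-type form, made up 99.7% ± 0.39 of the Cox6a counts in the knockout and 99.7% ± 0.31 in WT, and the heart form Cox6a2 was almost absent. Cox6a1 was also the most abundant complex IV gene in the knockout, with 333, 438 and 388 TPM, against 293, 305 and 356 TPM in WT (log2 fold change 0.25 ± 0.14). Cox6b2, known as a testis form, had the largest fold change of the set, 1.30 ± 0.57, on 2.44, 5.59 and 6.48 CPM in the knockout, against 1.15, 1.38 and 3.42 CPM in WT. Its groups overlapped, and the edgeR adjusted p was 0.177. The common form Cox6b1 had 34.1, 38.2 and 37.4 CPM in the knockout, against 27.0, 28.9 and 33.4 CPM in WT (0.30 ± 0.16, adjusted p = 0.30). It made up 88.6% ± 4.20 of the Cox6b counts in the knockout and 94.0% ± 2.88 in WT.

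The large regulatory subunit Cox4i1 had a fold change near 0, with 84.7, 75.1 and 68.2 CPM in the knockout, against 60.6, 78.4 and 88.1 CPM in WT (log2 fold change 0.01 ± 0.14, 95% interval -0.30 to 0.31). Cox8a gave 0.27 ± 0.16 and Ndufa4 0.16 ± 0.15, and neither was called. Cox7c had the lowest fold change of the set, -0.48 ± 0.37, on 5.82, 5.17 and 3.75 CPM in the knockout, against 7.95, 5.18 and 7.31 CPM in WT. Its groups overlapped, and 53% of its transcript sequence also occurs in 3 pseudogenes.

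Complex V, the ATP synthase, held the clearest difference of the set. Atp5b encodes the beta subunit of the F1 head, which carries the catalytic sites, and lies on chromosome 10 (mm10, 128083273 to 128090391, plus strand). It was the most abundant gene of the set in both groups, with 2052, 2365 and 1881 TPM in the knockout, against 1256, 1366 and 1305 TPM in WT. In normalised counts it had 1222, 1448 and 1131 CPM in the knockout, against 779, 827 and 823 CPM in WT, and the lowest knockout library was well above the highest WT library. The log2 fold change was 0.65 ± 0.08 (95% interval 0.47 to 0.82, edgeR adjusted p = 8.91e-05). Atp5b was called in all 16 alternative settings, with a log2 fold change between 0.54 and 0.72. A small nucleolar RNA gene (Snord59a) and a microRNA gene (Mir677) lie within it on the same strand, and their reads, if any, could not be told apart from its own.

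**Figure D4:**
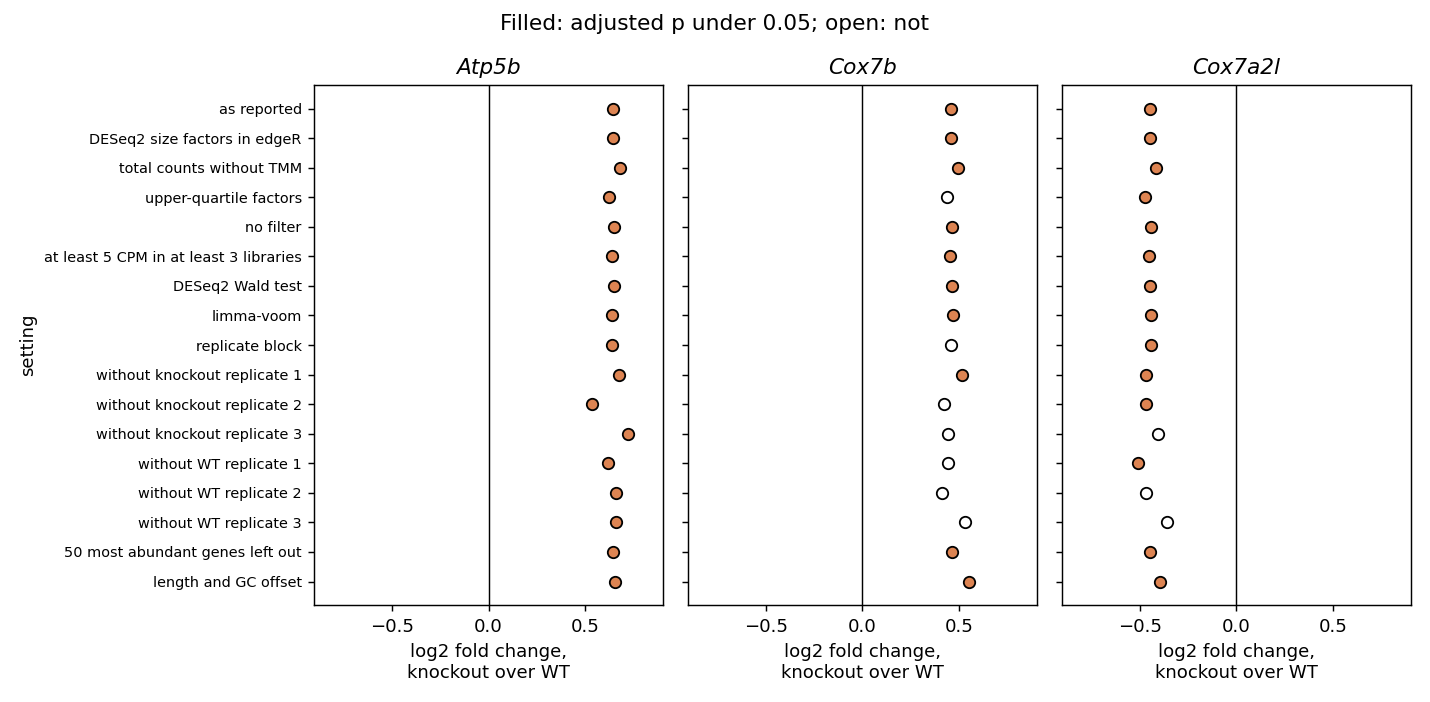
Log2 fold change, knockout over WT, of Atp5b, Cox7b and Cox7a2l as reported and under the 16 alternative settings (rows). Filled points have an adjusted p under 0.05 and open points do not: Atp5b is filled throughout, Cox7b in 9 and Cox7a2l in 13 of the alternatives.

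The partners of Atp5b in the F1 head were not called. Atp5a1, the alpha subunit that alternates with beta in the same ring, had 425, 466 and 376 CPM in the knockout, against 369, 366 and 415 CPM in WT (log2 fold change 0.14 ± 0.09, edgeR adjusted p = 0.406). Atp5c1, the gamma subunit of the rotating shaft, had 154, 167 and 166 CPM in the knockout, against 145, 161 and 156 CPM in WT (0.08 ± 0.10). Per length, Atp5b stood at 3.71, 4.01 and 3.88 times Atp5a1 in the knockout libraries, against 2.73, 2.91 and 2.56 times in the WT libraries. The size of this ratio depends on the lengths used. With exon-union lengths the means over all 6 libraries were 1178 TPM for Atp5b and 616 TPM for Atp5a1. The enzyme itself holds equal numbers of alpha and beta subunits. Atp5b made up 57.6% ± 1.30 of the complex V counts in the knockout and 48.8% ± 1.36 in WT, and, of the counts of complexes I to V, 29.6% ± 1.38 in the knockout and 21.9% ± 1.13 in WT. Without it the complex V counts were 901, 1008 and 876 CPM in the knockout, against 825, 817 and 906 CPM in WT, and the groups overlapped. Per length, where short transcripts weigh more, the sums without it were 2368, 2588 and 2360 TPM in the knockout, against 2105, 2116 and 2284 TPM in WT, and the groups did not overlap.

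All 15 complex V genes had a fold change above 0, but only Atp5b was called, 6.67% of the complex against 5.09% of all genes, and the median was 0.09. The count above 0 was 14 with upper-quartile scaling and 9 without knockout replicate 2, the library with the highest values of Atp5b and Atp5a1. By role, the 5 genes of the F1 head ranged from 0.08 to 0.65 in log2 fold change and the 10 of the stalk and the membrane part from 0.01 to 0.94. The 4 genes whose knockout values all lay above WT were Atp5b, Atp5g2, Atp5g3 and Atp5j, 26.7% of the complex against 13.7% of all genes. Atp5j, coupling factor 6 of the peripheral stalk, had 38.2, 37.8 and 36.2 CPM in the knockout, against 31.0, 27.1 and 35.2 CPM in WT (0.27 ± 0.16, edgeR adjusted p = 0.362). The smallest fold change was that of Atp5h, the stalk subunit d, at 0.01 ± 0.18.

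The c subunit, which forms the rotating ring in the membrane, is encoded by 3 genes that yield the same mature protein behind different import signals. The 3 coding sequences are shown over the same 90 bases of the mature part because the positions at which they differ are what let reads be assigned to a gene. Capitals mark bases of Atp5g1 and Atp5g2 that differ from Atp5g3, from the GENCODE vM21 transcripts, 5′ to 3′.
Atp5g1: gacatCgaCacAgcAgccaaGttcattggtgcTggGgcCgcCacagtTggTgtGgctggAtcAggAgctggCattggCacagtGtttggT
Atp5g2: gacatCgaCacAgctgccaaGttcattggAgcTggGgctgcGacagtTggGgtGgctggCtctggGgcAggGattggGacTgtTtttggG
Atp5g3: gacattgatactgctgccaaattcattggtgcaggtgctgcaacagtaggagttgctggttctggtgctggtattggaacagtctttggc
Over the 75 codons of the mature part, Atp5g1 differed from Atp5g3 at 45 bases (80% identity) and Atp5g2 at 48 bases (78.7%), with 0 amino acids changed in either.

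Atp5g3 supplied most of the c-subunit counts, 94.7% ± 0.70 in the knockout and 96.3% ± 1.77 in WT. It had 59.5, 71.7 and 56.7 CPM in the knockout, against 52.1, 48.8 and 47.9 CPM in WT, without overlap (log2 fold change 0.33 ± 0.14, edgeR adjusted p = 0.151). Atp5g2 had 2.33, 1.55 and 1.96 CPM in the knockout, against 1.15, 1.15 and 0.708 CPM in WT (0.94 ± 0.64, adjusted p = 0.420), the largest rise in complex V by estimate. Atp5g1 had 1.05, 1.86 and 1.62 CPM in the knockout, against 2.01, 0.345 and 0.472 CPM in WT (0.64 ± 0.74). The last pair rests on few counts, and much of each transcript is also present in pseudogenes.

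Sequence shared with other genes could limit the levels measured for some of these genes, since reads that fit 2 places may not be counted. For each gene the share of 50-base stretches of its transcript that occur in another annotated gene, on either strand, was computed. That gene may overlap at the same locus, which is no second place for a read. Another gene overlaps 37 of the 79 genes. The 24.8% of Uqcrc2, for instance, was shared with Pdzd9, which overlaps it on the opposite strand, and 0% with a pseudogene. Overlap and second places were not told apart in these shares. A single transcript was used for this, so its length can differ from the length behind the TPM. For Atp5g1 it held 642 stretches, while the TPM used 2675.5 bases, and for Ndufb2 it held 406 stretches against 2413 bases. The longer length lowers the TPM of these genes. Other genes differed too, such as Uqcrq with 356 stretches against 963 bases. Of the 79 genes, 33 shared none, 31 shared some with a pseudogene, and 7 shared at least 50%. The highest shares were those of Atp5g2 (100%, all of it found in the pseudogene Gm10175), Atp5l (84.8%), Atp5g1 (56.2%), Ndufa12 (53.8%), Cox7c (53%), Atp5h (50.5%) and Atp5o (50.3%). These 7 genes had a median level of 23.6 TPM in the knockout and 25.5 TPM in WT. The 50 genes that shared under 10% had a median of 93.5 TPM in the knockout and 94.9 TPM in WT. The 22 genes between these bounds had a median of 93.8 TPM in the knockout and 77.9 TPM in WT. Of the 7 high-sharing genes, Atp5h (133 TPM in the knockout) and Atp5o (81.7 TPM) were not low. For Atp5o, however, 24.6% was shared with a second annotated entry, also named Atp5o, that overlaps it on the same strand. Its share with a pseudogene was 19.1%. Whether shared sequence lowered any of these counts was not tested. Levels of the high-sharing genes are therefore uncertain, and a subunit listed low is not shown to be scarce. The called genes shared little, 0.857% for Atp5b and 0.63% for Cox7b, or a moderate part, 19.8% for Cox7a2l.

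**Figure D5:**
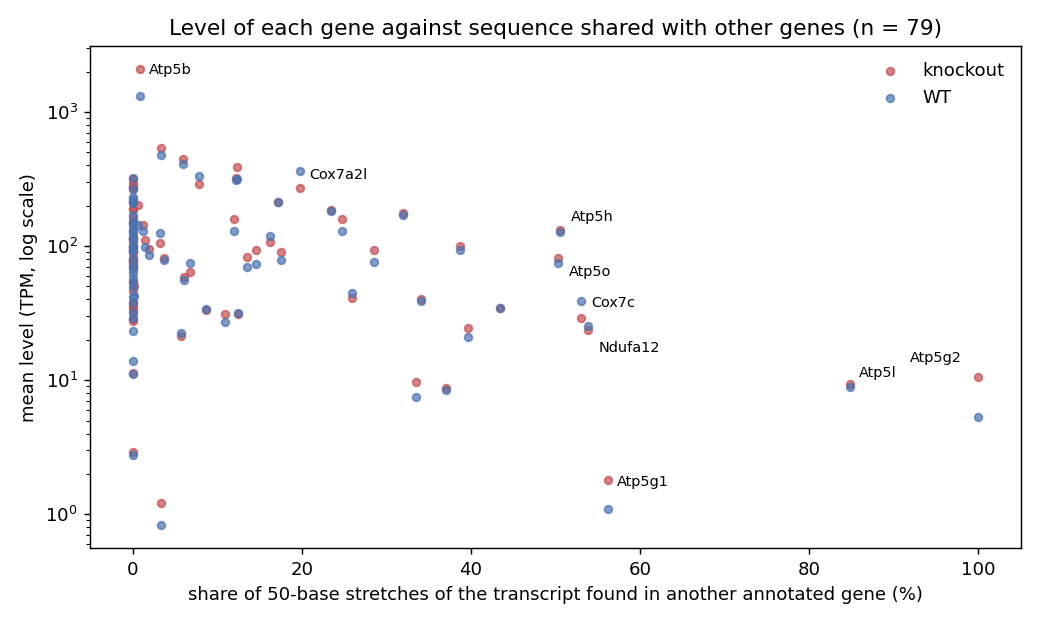
Mean level of each of the 79 genes (TPM, log scale) in knockout and WT libraries against the share of 50-base stretches of its transcript that occur in another annotated gene. Genes with at least 50% shared sequence lie at 132.6 TPM or lower, and Atp5b, with 0.857%, is the highest.

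The promoters of the called genes were read from RefSeq (GRCm38.p6), to show whether they carry the sites for which respiratory genes are known. Each line gives the 150 bases before the RefSeq start of the gene on its own strand. The places are chr10:128083157-128083306 (plus) for Atp5b, chrX:106015550-106015699 (plus) for Cox7b and chr17:83514334-83514483 (minus) for Cox7a2l. The gene spans given above are from GENCODE, whose starts can differ from those of RefSeq. The GENCODE span of Cox7a2l begins at 83517330 on the minus strand, so its window lies inside that span. The GENCODE start of Atp5b is 128083273, and its window runs past it.
Atp5b: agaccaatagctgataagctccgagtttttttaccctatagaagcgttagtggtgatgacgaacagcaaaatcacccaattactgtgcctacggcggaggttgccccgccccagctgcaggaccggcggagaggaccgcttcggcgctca
Cox7b: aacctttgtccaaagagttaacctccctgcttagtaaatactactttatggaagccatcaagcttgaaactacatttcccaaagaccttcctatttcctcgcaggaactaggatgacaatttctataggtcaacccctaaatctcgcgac
Cox7a2l: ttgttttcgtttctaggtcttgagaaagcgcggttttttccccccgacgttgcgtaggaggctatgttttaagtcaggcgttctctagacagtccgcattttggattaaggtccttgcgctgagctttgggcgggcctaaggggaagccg
The motifs searched, on both strands, were CGCATGCG (the core of the NRF1 site, a regulator of respiratory genes), CCGGAAG (the ETS family, to which the regulator GABP belongs), AAGGTCA (the estrogen-related receptors) and AAGATGGCG (YY1), none of which contains another. None of these letters occurs in the 3 stretches, which says nothing of whether the factors act on these genes.

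Across the set, promoters of 64 of the 79 genes were in the RefSeq table, from 250 bases before to 50 after the start. The NRF1 core was present in 9 of the 64 genes (14.1%), against 2.07% of all 27025 genes with a promoter and 4.57% of the 8257 that were tested here. The ETS motif was present in 25% of the set, 9.93% of all genes and 20.9% of tested genes. The receptor motif was present in 10.9% of the set, 5.38% of all genes and 3.91% of tested genes, and the YY1 motif in 12.5%, 1.64% and 3.78%. These shares are a description and were not tested. The NRF1 core was taken in place of a longer form of the site after both had been counted, and a longer form is by construction no more frequent. Shown are the 5 members in which the NRF1 core and 15 bases on each side lie before the RefSeq start and inside the window. The core is in capitals, and the stretches are printed because the bases around it can be compared. The 5 stretches lie at chr15:102671066-102671103 (minus), chr16:84835101-84835138 (minus), chr5:108434426-108434463 (minus), chr5:115349097-115349134 (minus) and chr17:56717688-56717725 (plus), in the order given.
Atp5g2: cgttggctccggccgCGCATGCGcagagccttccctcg
Atp5j: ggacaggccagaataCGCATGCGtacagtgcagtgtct
Atp5k: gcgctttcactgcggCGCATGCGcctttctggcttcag
Cox6a1: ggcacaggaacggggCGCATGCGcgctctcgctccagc
Ndufa11: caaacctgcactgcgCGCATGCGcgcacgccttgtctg
None of the 9 genes was called, against 9.67% of all genes in either direction, and 9 genes are too few to read this count. Their log2 fold changes ranged from -0.31 for Ndufa8 to 0.94 for Atp5g2, which had 6 to 23 counts a library.

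Several genes of the set lie on chromosome 7, as Arhgef1 does. The nearest was Atp5sl, 0.693 Mb away, with a log2 fold change of -0.04 ± 0.21. Cox7a1 lay 5.26 Mb away and was too low to test, and Cox6b1, described above, lay 5.69 Mb away. The 3 called genes lie on other chromosomes.

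Genes that work with the respiratory complexes were counted in the same fit, in which 5.09% of all genes rose and 4.58% fell. At an unadjusted p under 0.05 the shares among all genes were 11.6% higher and 10.7% lower. Of 53 assembly factors 0 was called, with 4 higher and 1 lower at an unadjusted p under 0.05 with edgeR. DESeq2 and limma-voom also called 0. The smallest p was that of Ndufaf4, a complex I assembly factor, with 38.1, 31.6 and 31.0 CPM in the knockout, against 52.4, 55.0 and 35.9 CPM in WT (log2 fold change -0.51 ± 0.18, edgeR adjusted p = 0.077). Of 24 tested subunits and electron carriers with other names 0 was called by edgeR and limma-voom and 2 by DESeq2, with 3 higher and 1 lower at an unadjusted p under 0.05. Etfdh, which passes electrons from fatty acid oxidation to ubiquinone, came nearest (0.52 ± 0.17, edgeR adjusted p = 0.065). No mitochondrially encoded gene that was looked up was among the genes tested, so these subunits are not described here.

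In the tricarboxylic acid cycle 2 of 18 tested genes rose and 0 fell, with a median log2 fold change of 0.09. That is 11.1% higher and 0% lower, against 5.09% and 4.58% of all genes. Citrate synthase (Cs), which opens the cycle, had 355, 397 and 322 CPM in the knockout, against 278, 266 and 283 CPM in WT (log2 fold change 0.38 ± 0.09, edgeR adjusted p = 0.013). Idh3a, the catalytic subunit of the NAD-dependent isocitrate dehydrogenase, had 37.8, 36.5 and 38.3 CPM in the knockout, against 25.1, 23.8 and 24.3 CPM in WT (0.62 ± 0.16, adjusted p = 0.021). The call of Cs was lost without knockout replicate 2 or WT replicate 2, and that of Idh3a without knockout replicate 3 or any of the 3 WT libraries.

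Among 10 tested regulators of mitochondrial biogenesis 3 rose and 0 fell (30% higher, against 5.09% of all genes), and the median log2 fold change was 0.33. DESeq2 called 4 of them higher and limma-voom 2. Myc, a growth regulator with mitochondrial genes among its targets, had 95.8, 106.3 and 98.5 CPM in the knockout, against 72.03, 63.3 and 74.9 CPM in WT (0.52 ± 0.12, edgeR adjusted p = 0.0094). Gabpb2, a subunit of the ETS-family regulator GABP, rose by 0.35 ± 0.10 (adjusted p = 0.033), with overlapping groups. Ppargc1a, the coactivator PGC-1α, had 20.5, 19.2 and 12.4 CPM in the knockout, against 9.39, 7.60 and 10.4 CPM in WT (0.92 ± 0.27, adjusted p = 0.038). Nrf1 and Gabpa, taken up here after their values were seen, gave 0.33 ± 0.15 and 0.20 ± 0.09 and were not called (adjusted p = 0.191 for each). The call of Myc was lost without WT replicate 2, that of Gabpb2 with upper-quartile scaling and on leaving out any 1 library other than knockout replicate 1 or WT replicate 2, and that of Ppargc1a in 7 of 16 settings, among them limma-voom and leaving out any 1 library other than knockout replicate 3.

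Other mitochondrial groups held few calls. Of 74 tested mitochondrial ribosomal protein genes 1 rose (1.35%, against 5.09% of all genes), Mrps7 of the small subunit (0.61 ± 0.17, edgeR adjusted p = 0.031). The median of the group was 0.15, with 55 above 0 (74.3%, against 50.1% of all genes). The call of Mrps7 was lost without knockout replicate 3, WT replicate 1 or WT replicate 2. Of 24 tested genes of protein import and carriers, of 12 genes of mitochondrial DNA upkeep and transcription and of 9 genes of redox defence, edgeR called 0. The counts at an unadjusted p under 0.05 were 2 higher and 1 lower for import, 0 higher and 2 lower for mitochondrial DNA, and 1 higher and 0 lower for redox defence. Among all genes the shares at that threshold were 11.6% higher and 10.7% lower. For import DESeq2 called 2 higher and limma-voom 1. The V-ATPase is a proton pump of endosomes and lysosomes that resembles complex V in build but consumes ATP. Of its 16 tested genes 1 fell (6.25%, against 4.58% of all genes), Atp6v0b (-0.41 ± 0.13, edgeR adjusted p = 0.047). That call was lost in 11 of the 16 alternative settings, among them each of the 6 fits with 1 library left out. DESeq2 called 1 V-ATPase gene higher as well as 1 lower.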

How the data were processed

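RNA from splenic cDC2s was sequenced in 6 libraries, 3 Arhgef1-/- and 3 WT, grouped by the titles in the labels. The deposited table holds unnormalised counts for each symbol and library. STAR, HTSeq, DESeq2 and the build mm10 appear in the submitters' processing notes. Not given in the sources used here are their versions, the annotation, the strand setting and the treatment of reads that fit several places.

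Counts were fitted in edgeR 4.0.16 (R 4.3.3) over all genes passing filterByExpr, with TMM scaling, a quasi-likelihood test of genotype and Benjamini-Hochberg adjustment. A gene was called, and is written as risen or fallen, at an adjusted p under 0.05. SEs are fold changes divided by the root of their F statistics. CPM use TMM-scaled library sizes. TPM used the median length of a gene's CCDS transcripts in GENCODE vM21, chosen after the annotation was seen, because exon unions include retained introns. Symbols matched it for 13301 genes directly and for 1266 through older symbols, and 221 did not match.

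The members and lists were chosen with earlier results of these data known. Genes are described per library or by fold change alone. Taken were called genes and isoform pairs. In each complex the 2 most abundant, the smallest p, the largest rise and the largest fall were taken too. In each related list, called genes or else the smallest p were taken. For import, mitochondrial DNA, redox defence and the cell cycle these genes are not named. Others are marked or given in ranges. A result that this rule takes is not reported here.

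Replicates of a group differed by more than sampling noise (chi-square per degree of freedom 8.14 to 14.0). The fit was tested on simulated counts. Alternatives were DESeq2 size factors, no TMM, upper-quartile factors, no filter, a filter of 5 CPM in 3 libraries, DESeq2 1.42.0, limma-voom (limma 3.58.1), a replicate block, each library left out, the 50 most abundant genes left out, and a length and GC offset.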

Additional observations from a re-analysis of the deposited data

How the results depend on the processing

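Atp5b was called under all 16 alternative settings. Cox7b was called under 9 of them, with adjusted p from 0.014 to 0.161, and Cox7a2l under 13, with adjusted p from 0.0034 to 0.100. The number of genes of the set called higher was 1 in place of 2 with upper-quartile factors and 1 with the replicate number as a block, and 1 to 2 with 1 library left out. The number called lower was 0 to 1 with 1 library left out. Over all genes, leaving out 1 library gave 310 to 583 higher and 264 to 489 lower calls, the lower ends without knockout replicate 2 or any WT library; the fits with fewer libraries have fewer degrees of freedom. With that block the adjusted p was 0.0588 for Cox7b, 0.0651 for Ppargc1a and 0.0679 for Atp6v0b, so that none of these was called. The replicate block is not a pairing by the labels: same-numbered libraries had correlations of their deviations of 0.05, -0.04 and -0.03. Among the other 25 subunit genes followed, 0 was called under any alternative and 6 changed sign, at a size of at most 0.22 on the log2 scale. The median fold change of the set ran from 0.008 without knockout replicate 2 to 0.13, that of complex I from -0.08 to 0.10, and that of complex V from 0.05 to 0.20 without WT replicate 3. That of complex III ran from 0.04 to 0.24 and that of complex IV from 0.06 to 0.24. With exon-union lengths the complex V sum was 3352 TPM in the knockout and 2604 TPM in WT, and that of complex I 2671 TPM in the knockout and 2645 TPM in WT. The cause of these shifts was not tested.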
